A study of Homo sapiens with 15 samples.

Results

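MCF10A cells kept in 0.20 mM glutamine were compared with the same cells kept in 0.28 mM glutamine, an intermediate and a mild limitation of one nutrient. The comparison used 6 of the 15 libraries of the series, the 3 replicates labelled with each of these concentrations, and every Ensembl gene of the count table. The other 9 libraries, at 0.04 mM, 0.12 mM and in full medium, entered the same fit, so that all groups shared one estimate of the spread. MCF10A is an established non-tumorigenic line of human breast epithelium, labelled wild type in every library. All cells grew in a DMEM/F12 based mammary epithelial medium with growth supplements and cholera toxin, and the labels name no difference between the groups other than glutamine. Full medium held 2.5 mM, and the time in limited glutamine is not given in the labels. RNA was total RNA depleted of ribosomal RNA with RiboErase, built into libraries with the KAPA RNA HyperPrep kit and ERCC spike-ins. The replicates are labelled as biological replicates of 1 line, so the p-values measure the spread between these cultures only.

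Glutamine is the amino acid that carries nitrogen into nucleotides, hexosamines and asparagine, and, once made into glutamate, carbon into the citric acid cycle. Cells take it up through carriers such as SLC1A5 and SLC38A2 and make it with glutamine synthetase (GLUL). When amino acids run short, the kinase GCN2 raises translation of the transcription factor ATF4, whose known targets include ASNS, CHAC1, TRIB3, SESN2 and PSAT1.

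The 6 libraries held 8140642 to 13361406 gene counts, with 1.06 to 1.58% of all counts from spike-ins. Of these 6, replicate 1 at 0.20 mM stood apart in mitochondrial ribosomal RNA, which took 0.402% of its gene counts and at most 0.00638% in the other 5 libraries. Outside the 6, replicate 3 at 0.04 mM (2.97%) and replicate 3 at 0.12 mM (1.62%) were higher still. All 10 basal mammary markers were tested, and their summed level was 21759 to 31917 CPM at 0.20 mM and 22645 to 33339 CPM at 0.28 mM (CPM, the count scaled to the gene counts of the library). The 4 general epithelial markers summed to 578 to 636 and 566 to 647 CPM. Of 6 markers of hormone-sensing luminal cells 2 passed the filter on low counts (15.9 to 25.3 and 19.5 to 27.4 CPM summed over all 6), and PGR was at 0 in all 6 libraries. Fibroblast markers summed to 41.3 to 60.4 and 37.1 to 52.5 CPM with LUM, THY1 and COL3A1 at 0, and endothelial markers to 7.69 to 10.4 and 5.16 to 9.95 CPM with VWF and CDH5 at 0. Immune cell markers summed to 1.48 to 1.71 and 1.23 to 2.02 CPM, with PTPRC, LYZ and CD3E among those at 0. None of the tested markers passed the test between the concentrations. The libraries are bulk samples, in which fewer cells of a kind and less RNA per cell cannot be told apart.

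Of 13828 genes tested, 97 differed between the concentrations (0.701%) at an adjusted p under 0.05 in edgeR's quasi-likelihood test, in which replicate numbers formed blocks. The 74 that rose (0.535%) were all protein-coding, with a median log2 change of 0.38 and a range of 0.25 to 1.48. The 23 that fell (0.166%) had a median change of -0.63, and 15 of them were protein-coding. Only 8 of the 97 changed by 2-fold or more, of which 7 fell. All 97 moved in the same direction in 3 of 3 replicate pairs, but the 3 values at one concentration lay clear of the 3 at the other for only 26 of them, 15 higher and 11 lower, against 7.68% of all genes tested. The count depended on the fit: the 6 libraries alone, with the block, gave 1341 genes (744 higher, 597 lower, or 55.5% higher) and the 12 libraries with limited glutamine 395 (270 and 125). With spike-in scaling the calls became 12 higher and 10 lower, or 54.5% higher in place of 76.3%. Without the block 0 genes passed in edgeR (295 at an unadjusted p under 0.05, against 1925 with the block) and 0 in DESeq2, and leaving out 1 library left 3 (without 0.28 mM replicate 2) to 25 genes (without 0.20 mM replicate 2). Without 0.20 mM replicate 1, the library high in mitochondrial ribosomal RNA, 9 remained, 7 of them higher and 2 lower.

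The change of a gene followed the base composition of its transcript. All 74 genes that rose had a transcript GC content, the share of G and C bases, of 32.5 to 44.6% (median 37.7%), below the median of 48.4% over tested genes. The 20 genes that fell and have a GC value had a median of 55.2% (37.1 to 67.2%), and 14 of them lay above the median of all genes. Across 13534 tested genes with a GC value, in 10 bins of equal size, the median change fell in order from 0.19 in the most AT-rich bin (27.8 to 38.7% GC) to -0.099 in the most GC-rich (61.7 to 83.9%). In the first bin 87.4% of genes had a change above 0, and 50 of 1354 (3.69%) rose. In the last bin 22.2% were above 0, 0 rose and 3 fell. Scaling to the spike-ins moved the median of all genes from -0.0070 to 0.073, the first bin to 0.27 and the last to -0.016, so that bins 5, 6 and 7, at -0.0089, -0.045 and -0.073, moved above 0 (0.07, 0.036 and 0.007).

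**Figure D1:**
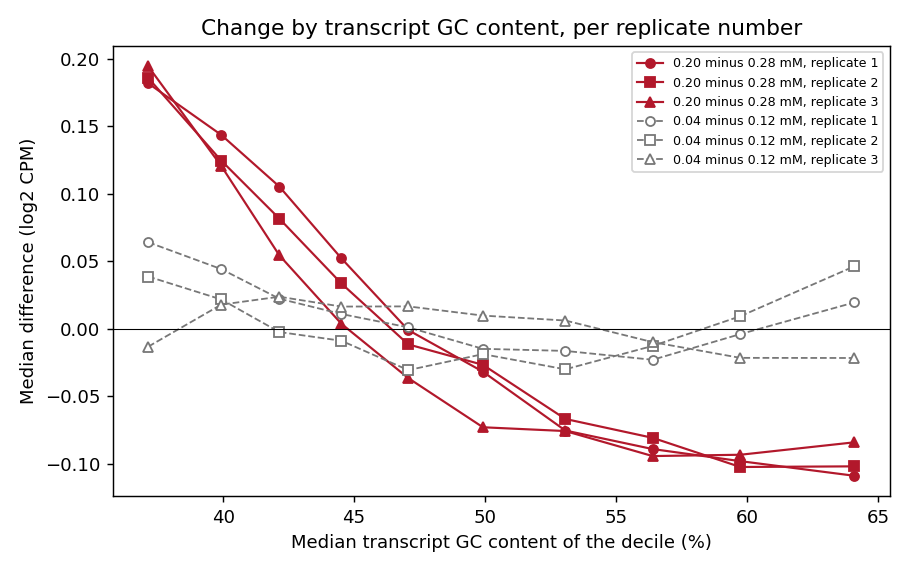
Median difference in log2 CPM between concentrations (y) against the median transcript GC content of 10 equal bins of genes (x, %), 1 line per replicate number. The 3 lines of 0.20 minus 0.28 mM (filled red) fall from 0.18, 0.19 and 0.19 to -0.11, -0.10 and -0.084, and the 3 lines of 0.04 minus 0.12 mM (open grey) stay between -0.031 and 0.064.

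Each replicate pair showed this trend by itself. The slope of the difference on GC content, per 10 percentage points, was -0.112, -0.105 and -0.0942 log2 units in pairs 1, 2 and 3 (mean -0.104, SD 0.0090, n = 3 pairs). The 3 slopes lay close together, and each was several times the spread between them. An exact two-sided sign-flip permutation test over 3 pairs gave p = 0.25, the smallest value that 3 pairs allow. Genes are not independent replicates, so no p-value over genes is given. The contrast of 0.04 with 0.12 mM, which shares no library with this one, had slopes of -0.0130, 0.0032 and -0.0139 (mean -0.0079, SD 0.0096), and its slopes lay above those of 0.20 minus 0.28 mM in 3 of 3 pairs (difference -0.0957, SD 0.0141, exact permutation p = 0.25, again the smallest possible). Without 0.20 mM replicate 1 only pairs 2 and 3 remain, and both have the slope given above.

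The slope was not ordered by glutamine across the 5 groups. Measured in each library against the mean of all 15, the slope on GC content at 0.20 mM was 0.0120, -0.112 and -0.122 in replicates 1, 2 and 3, the lowest of the 5 groups within each replicate number. The 0.28 mM libraries had slopes of 0.124, -0.0070 and -0.0279, and those in full medium 0.203, -0.0288 and -0.0048. Slopes were 0.120, -0.0856 and -0.0410 for 0.12 mM, and 0.107, -0.0823 and -0.0549 for 0.04 mM. The libraries of replicate 1 thus lay above 0 in every group and those of replicates 2 and 3 below it. The values at 0.20 and 0.28 mM overlap between groups and separate only within a replicate number. Of the 10 possible contrasts between groups, 8 had the same sign of slope in 3 of 3 pairs, and 0.20 mM minus full medium had the largest mean (-0.131, SD 0.0556). The contrast of 0.04 with 0.12 mM was not among these 8. That of 0.12 minus 0.20 mM, which shares the 0.20 mM libraries, had slopes of 0.108, 0.0260 and 0.0811. A trend with GC content was thus not particular to 0.20 against 0.28 mM. What in the cells or the libraries moved with GC content was not tested.

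**Figure D2:**
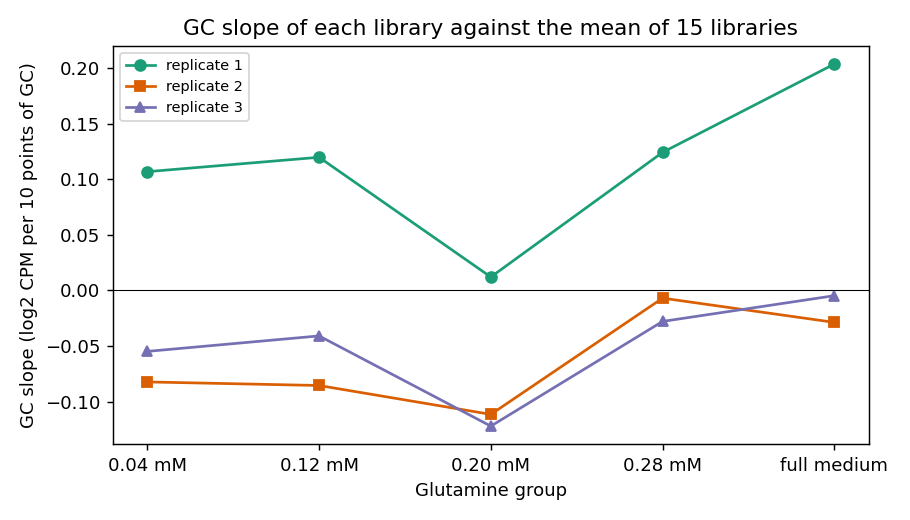
Slope of log2 CPM on transcript GC content in each library against the mean of 15 libraries (y, log2 CPM per 10 points of GC), by glutamine group (x), 1 line per replicate number. The 0.20 mM library is lowest in all 3 replicate numbers (0.0120, -0.112 and -0.122), and the replicate 1 libraries lie above those of replicates 2 and 3 in each group.

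The change ranked more closely with the GC content of the coding sequence and 3′ untranslated region than with that of the 5′ untranslated region or promoter. Over 11784 protein-coding genes tested, the rank correlation of the change with GC content was -0.55 for the whole transcript, -0.51 for the coding sequence, -0.50 for codon position 3 and -0.49 for the 3′ untranslated region (11506 genes). It was -0.13 for the 5′ untranslated region (10745 genes) and -0.10 for the promoter (250 bases before to 50 after the start, 9660 genes). The share of glutamine codons in the coding sequence had a rank correlation of -0.016 with the change. At codon position 3 the median GC content was 35.1% in the 74 genes that rose, 63.8% in the 15 protein-coding genes that fell and 58.2% in all. These correlations are across genes of the same 6 libraries and serve as description. The slope was -0.105 in protein-coding genes (11794) and -0.0915 in lincRNA, antisense and processed transcripts (1010). It was -0.0913, -0.110 and -0.109 at low, middle and high expression (3 equal classes), -0.0929, -0.112 and -0.116 in short, middle and long transcripts, and -0.101 in the 6943 genes whose exons overlap no other gene. Genes that rose had longer transcripts (median 4757 bases) than all genes (3219 bases). Those that fell, coding and noncoding together, had shorter ones (1512 bases). Among protein-coding genes alone the median log2 length was 12.22 in the 74 that rose, 12.06 in the 15 that fell and 11.77 in all. The coding genes that fell were thus not shorter than coding genes in general.

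**Figure D3:**
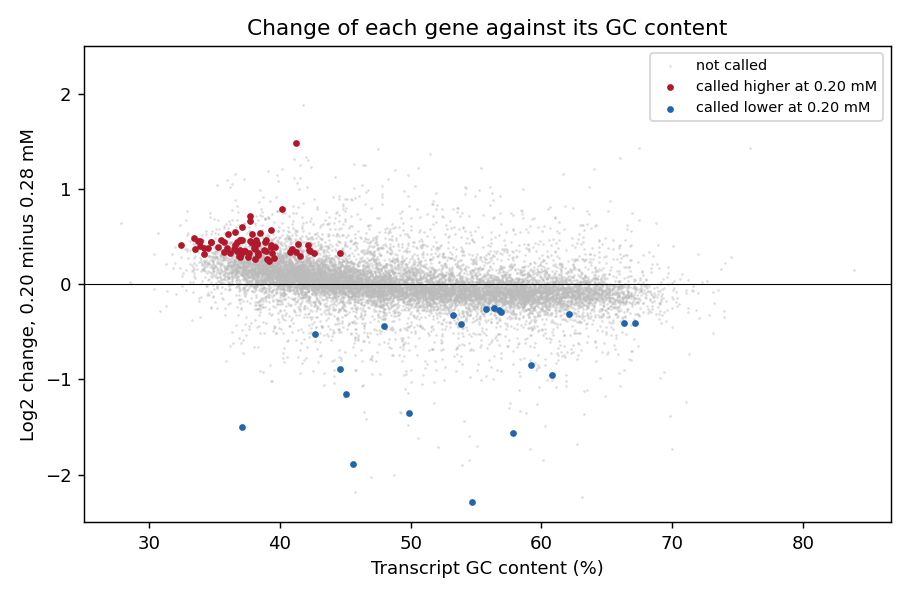
Log2 change at 0.20 minus 0.28 mM (y) against transcript GC content (x, %) for each tested gene with a GC value, with the genes that passed the test in red (higher) and blue (lower); 3 genes fall outside the plotted range of y. The 74 red points lie between 32.5 and 44.6% GC, and the blue points span 37.1 to 67.2%.

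Coding sequence of genes at both ends of this trend shows what the values describe. Shown are 120 bases from the middle of the longest coding exon of the 2 named higher genes of lowest and the 2 named lower genes of highest transcript GC content, among those reported with an exon long enough and under 20% of exons overlapped. They are read 5′ to 3′ on the gene's strand from GRCh38 with GENCODE 29 exons, with G and C in capitals. NFYB (chr12:104123265-104123384, minus strand) and SLITRK6 (chr13:85795188-85795307, minus strand) rose, and COL18A1 (chr21:45456147-45456266, plus strand) and PRR12 (chr19:49596296-49596415, plus strand) fell.
NFYB: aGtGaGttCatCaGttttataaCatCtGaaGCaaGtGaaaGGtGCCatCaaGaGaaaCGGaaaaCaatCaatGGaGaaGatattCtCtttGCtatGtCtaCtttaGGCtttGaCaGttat
SLITRK6: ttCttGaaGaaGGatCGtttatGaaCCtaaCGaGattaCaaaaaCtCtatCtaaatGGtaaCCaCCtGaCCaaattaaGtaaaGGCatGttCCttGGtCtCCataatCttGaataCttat
COL18A1: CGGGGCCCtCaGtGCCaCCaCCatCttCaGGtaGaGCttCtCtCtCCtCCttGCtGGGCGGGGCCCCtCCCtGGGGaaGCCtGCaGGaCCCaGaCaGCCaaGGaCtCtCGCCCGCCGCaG
PRR12: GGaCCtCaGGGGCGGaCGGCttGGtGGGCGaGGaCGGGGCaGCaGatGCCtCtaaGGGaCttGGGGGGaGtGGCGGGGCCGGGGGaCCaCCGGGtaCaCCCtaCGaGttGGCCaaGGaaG
G and C made up 43 of 120 bases in NFYB (35.8%), 41 in SLITRK6 (34.2%), 82 in COL18A1 (68.3%) and 84 in PRR12 (70.0%). The whole transcripts hold 36, 37.1, 67.2 and 66.3% GC, so each window is close to its transcript in composition.

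The 12 named genes that rose furthest encode proteins of varied function. ACTR6, an actin-related protein of the chromatin remodeller that places histone H2A.Z (ENSG00000075089, chromosome 12, 100200815 to 100224424, RefSeq GRCh38.p14), was at 8.47, 18.2 and 17.99 CPM at 0.20 mM and 6.09, 8.77 and 10.3 CPM at 0.28 mM (CPM of single genes use library sizes scaled by TMM, a trimmed mean over genes). Replicate 1 at 0.20 mM lay inside the range of 0.28 mM, and the others lay above it (log2 change 0.79, SE 0.168, adjusted p = 0.0214). SCOC, a short coiled-coil protein of the Golgi with a role in autophagy (ENSG00000153130, chromosome 4, 140257308 to 140385728), was at 18.5, 33.2 and 36.3 CPM at 0.20 mM and 13.7, 21.02 and 17.9 CPM at 0.28 mM, again with replicate 1 inside the other group's range (log2 change 0.71, SE 0.131, adjusted p = 0.00994). SLITRK6, a membrane protein known from neurite growth (ENSG00000184564, chromosome 13, 85792790 to 85799419), was at 30.4, 23.8 and 32.7 CPM at 0.20 mM and 19.3, 19.2 and 18.8 CPM at 0.28 mM. These groups did not overlap (log2 change 0.60, SE 0.139, adjusted p = 0.0402). Against full medium SLITRK6 changed by 1.14 at 0.20 mM and 0.54 at 0.28 mM, contrasts that share the full medium libraries.

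ASNSD1, which carries an asparagine synthetase domain (ENSG00000138381, chromosome 2, 189661459 to 189670831), was at 15.5, 21.7 and 19.2 CPM at 0.20 mM and 11.5, 14.9 and 11.3 CPM at 0.28 mM, without overlap (log2 change 0.57, SE 0.138, adjusted p = 0.0442). NFYB, a subunit of the CCAAT-binding factor NF-Y (ENSG00000120837, chromosome 12, 104117086 to 104138210), was at 20.001, 26.2 and 28.7 CPM at 0.20 mM and 12.3, 20.7 and 19.6 CPM at 0.28 mM (log2 change 0.53, SE 0.122, adjusted p = 0.0363), and replicate 1 at 0.20 mM fell within the values of 0.28 mM. CMTR2, a methyltransferase of the mRNA cap (ENSG00000180917, chromosome 16, 71281392 to 71289722), was at 31.4, 40.1 and 37.5 CPM at 0.20 mM and 23.2, 25.2 and 26.3 CPM at 0.28 mM, all 3 higher (log2 change 0.53, SE 0.116, adjusted p = 0.0273). The remaining genes were ZMYM1, a zinc finger protein (0.66, SE 0.132), PIK3C2G, a class II phosphoinositide 3-kinase (0.54, SE 0.122, no overlap), GMFB, a regulator of actin branching (0.48, SE 0.0991), SRP9, a subunit of the signal recognition particle (0.47, SE 0.0948), and PNLIPRP3, of the pancreatic lipase family (0.47, SE 0.11). In all, 4 of the 12 had groups that did not overlap. ZNF596, a zinc finger gene under the expression limit for named genes and chosen after its values were seen, had the largest rise, from 0.624, 1.32 and 1.30 CPM at 0.28 mM to 2.36, 3.63 and 2.87 CPM at 0.20 mM (log2 change 1.48, SE 0.355, adjusted p = 0.0441).

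**Figure D4:**
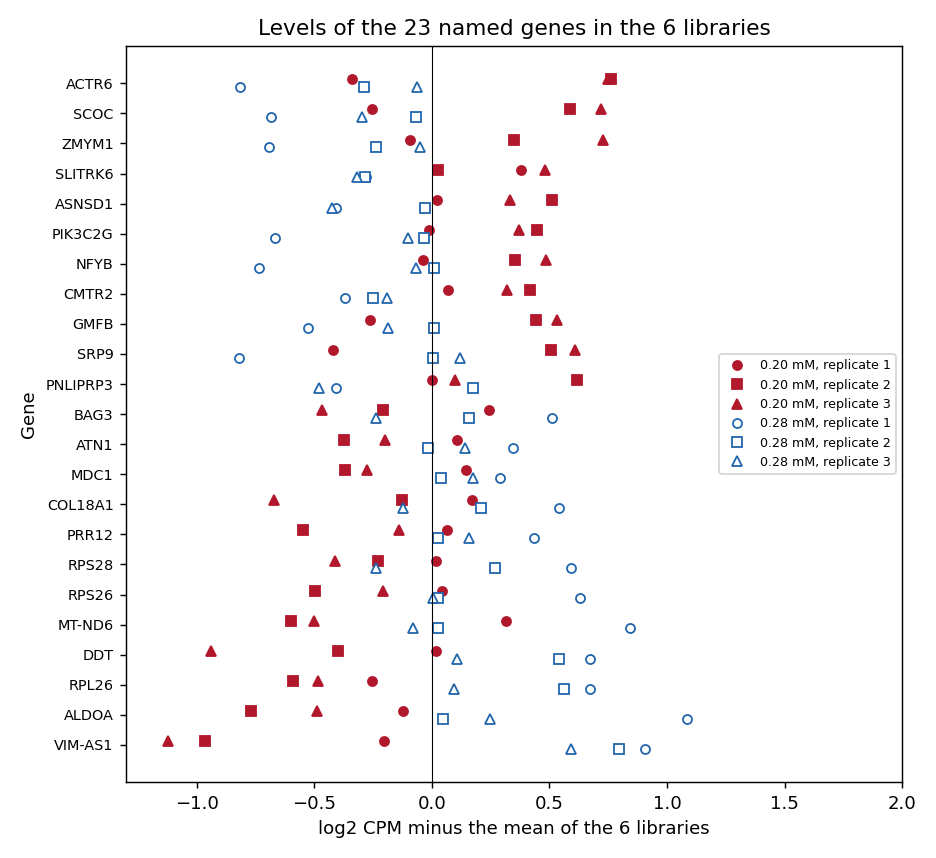
Level of 23 named genes in each of the 6 libraries (x, log2 CPM minus the mean of the 6), genes in rows, 0.20 mM filled red and 0.28 mM open blue, 1 symbol per replicate number. In each of the 23 genes every filled symbol lies on the same side of the open symbol of its own replicate number, and 4 of the 11 higher and 4 of the 12 lower genes have groups that do not overlap.

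Of the 12 named genes that fell furthest, 3 encode proteins of the cytosolic ribosome. RPL26, a protein of the large subunit (ENSG00000161970, chromosome 17, 8377516 to 8383193), was at 45.2, 35.8 and 38.4 CPM at 0.20 mM and 85.7, 79.5 and 57.4 CPM at 0.28 mM. Every library at 0.20 mM was lower than every library at 0.28 mM (log2 change -0.90, SE 0.163, adjusted p = 0.00963). RPS26, of the small subunit, was at 102, 69.9 and 85.6 CPM at 0.20 mM and 153, 101 and 99.2 CPM at 0.28 mM (log2 change -0.44, SE 0.0967, adjusted p = 0.0264), and RPS28, also of the small subunit, at 132, 112 and 98.6 CPM at 0.20 mM and 197, 158 and 111 CPM at 0.28 mM (log2 change -0.42, SE 0.103, adjusted p = 0.0442). RPS26 and RPS28 overlapped between groups. Ribosomal protein genes have near-identical copies elsewhere in the genome, so these counts are uncertain. Of 77 ribosomal protein genes tested these 3 fell (0.166% of all genes fell) and 0 rose. The list median was -0.088 against -0.0070 for all genes, or -0.013 against 0.073 with spike-in scaling.

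MT-ND6, the one protein gene on the light strand of mitochondrial DNA, was at 36.4, 19.3 and 20.7 CPM at 0.20 mM and 52.5, 29.8 and 27.7 CPM at 0.28 mM (log2 change -0.52, SE 0.122, adjusted p = 0.0402). It was lower within each pair, while the highest library at 0.20 mM lay above the lowest at 0.28 mM. The other 12 mitochondrial mRNAs did not pass the test, and all 13 had a change below 0 (-0.52 to -0.16). Over all genes 0.166% fell and 51.5% were below 0. The 13 genes are not independent replicates. The median of the 13 was -0.28 against -0.0070 for all genes, or -0.20 against 0.073 with spike-in scaling. Their median difference was -0.043 in pair 1, which holds the library high in mitochondrial ribosomal RNA, and -0.34 and -0.39 in pairs 2 and 3. Together the 13 took 1.61, 1.08 and 1.10% of gene counts at 0.20 mM and 1.61, 1.28 and 1.38% at 0.28 mM. Any part of the ribosomal RNA difference in these values was not tested.

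The rest of the named genes that fell are scattered over functions. PRR12, a proline-rich nuclear protein (ENSG00000126464, chromosome 19, 49591182 to 49626439), was at 103, 67.6 and 89.7 CPM at 0.20 mM and 133, 101 and 110.3 CPM at 0.28 mM (log2 change -0.41, SE 0.0746, adjusted p = 0.00963). COL18A1, the collagen chain that yields endostatin (ENSG00000182871, chromosome 21, 45405165 to 45513720), was at 38.1, 31.0001 and 21.3 CPM at 0.20 mM and 49.2, 39.2 and 31.1 CPM at 0.28 mM (log2 change -0.41, SE 0.0969, adjusted p = 0.0438). Both overlapped between groups. Smaller falls were measured for MDC1, a scaffold of the DNA damage response (-0.33, SE 0.0747), ATN1, a transcriptional corepressor (-0.31, SE 0.071), and BAG3, a cochaperone of HSP70 (-0.29, SE 0.072). ALDOA, the glycolytic aldolase, was counted at 9.61, 6.13 and 7.45 CPM at 0.20 mM and 22.2, 10.8 and 12.4 CPM at 0.28 mM (log2 change -0.95, SE 0.228, adjusted p = 0.0441), and DDT, a homologue of the cytokine MIF, at 7.42, 5.56 and 3.83 CPM at 0.20 mM and 11.7, 10.7 and 7.90 CPM at 0.28 mM (log2 change -0.85, SE 0.207, adjusted p = 0.0442). Neither gene overlapped between groups. Exons of other genes cover 53.5% of the ALDOA and 37.8% of the DDT exons, so both levels are uncertain.

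Of a fixed panel of 16 genes around glutamine handling and amino acid stress, 1 passed the test, against 0.701% of all genes tested. A count of 1 in 16 is too small to set the panel apart from that share. SLC38A2, a sodium-coupled importer of glutamine and other neutral amino acids (ENSG00000134294, chromosome 12, 46358188 to 46372773), was at 395, 660.2 and 552 CPM at 0.20 mM and 337, 473 and 421 CPM at 0.28 mM. It was higher at 0.20 mM in each pair, and replicate 1 at 0.20 mM lay inside the range of 0.28 mM (log2 change 0.37, SE 0.0704, adjusted p = 0.00994). In full medium it was at 273, 376 and 304 CPM, and against full medium it changed by 0.74 at 0.20 mM and 0.37 at 0.28 mM.

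GLUL, the gene of glutamine synthetase, was at 310.4, 268 and 246 CPM at 0.20 mM and 335, 264 and 270.4 CPM at 0.28 mM, with groups that overlapped (log2 change -0.076, SE 0.0711, adjusted p = 0.683). ATF4 was at 360.5, 454 and 523 CPM at 0.20 mM and 361, 415 and 561 CPM at 0.28 mM (log2 change 0.0082, SE 0.0817, adjusted p = 0.976), and GFPT2, which starts hexosamine synthesis from glutamine, at 26.4, 28.05 and 39.4 CPM at 0.20 mM and 25.2, 26.9 and 40.7 CPM at 0.28 mM (log2 change 0.021, SE 0.124, adjusted p = 0.961). TRIB3 (-0.065, SE 0.0744), PSAT1 (0.024, SE 0.0834), PHGDH (-0.066, SE 0.101), SESN2 (-0.15, SE 0.106) and SLC7A11 (0.07, SE 0.105) are genes of the ATF4 and serine synthesis programmes that did not pass either. SLC1A5, a glutamine carrier, was at 456, 462 and 427 CPM at 0.20 mM and 524, 492 and 517 CPM at 0.28 mM, lower in every library at 0.20 mM but not past the test (log2 change -0.19, SE 0.0653, adjusted p = 0.174). MYC (-0.046, SE 0.0675), CDKN1A (-0.11, SE 0.069) and TXNIP (0.029, SE 0.0832) had small changes. CHAC1 (-0.52, SE 0.507), DDIT3 (-0.47, SE 0.452) and ASNS (-0.79, SE 0.622, 44.6% of exons overlapped) were among the panel genes with the fewest reads, with ASNS at 0.262, 0.227 and 1.06 CPM at 0.20 mM and 0.624, 0.360 and 1.65 CPM at 0.28 mM. The changes of these 3 genes could not be told from 0.

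Across the 52 gene lists, 18 held any member that passed. The G2 and M phase list had the most, with 4 of 56 higher and 0 lower, against 0.535% higher and 0.166% lower over all genes. CENPE, a kinesin of the kinetochore, was at 116, 149.5 and 126 CPM at 0.20 mM and 79.5, 121 and 101 CPM at 0.28 mM (log2 change 0.39, SE 0.0768, adjusted p = 0.0121). KIF20B, a kinesin of cytokinesis (0.32, SE 0.0767), KIF18A, a kinesin that limits spindle microtubules (0.46, SE 0.112), and CDK1, the mitotic kinase (0.36, SE 0.0885), rose as well. The median over the list was 0.0028, with 28 of 56 members above 0, and the 4 that rose have transcripts of 34.2 to 37% GC against a list median of 43.2%. The S phase list had 0 of 48 past the test and a median of -0.058. Homologous recombination and Fanconi repair had 1 of 37, NBN of the MRN complex (log2 change 0.35, SE 0.0715, adjusted p = 0.0142), and a median of 0.14 at a median GC content of 42.4%. That median was 0.037 once the trend with GC content was taken out. Of 437 ZNF genes, which are AT-rich (median 44.0% GC), 272 were above 0 (median 0.059) and 1 rose.

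Of the replication-dependent histone genes, which pack new DNA and are GC-rich (median 57.2%), 0 of 51 passed and 4 were above 0. Over all genes 0.701% passed and 48.5% were above 0. The histone median was -0.11, or -0.10 with the trend with GC content taken out. With spike-in scaling it was -0.027, against 0.073 for all genes. The other lists with a call held 1 or more of these genes: DLD, a subunit of the 2-oxoglutarate and pyruvate dehydrogenases (0.39, SE 0.0841), CCNG1, a cyclin induced by p53 (0.42, SE 0.0791), BIRC3, an inhibitor of apoptosis (0.45, SE 0.0974), B2M, the light chain of MHC class I (0.32, SE 0.0762), AZIN1, which protects ornithine decarboxylase (0.34, SE 0.0785), and EIF3E, a subunit of initiation factor eIF3 (0.44, SE 0.0739). Proteasome (32 genes), mitochondrial ribosome (75), nuclear respiratory chain (76), NRF2 target (33), cholesterol synthesis (25) and aminoacyl-tRNA synthetase (37) lists had 0 calls. Their medians were, in that order, -0.064, 0.0035, -0.070, -0.0027, -0.057 and -0.0019. At a share of 0.701% over all genes, 0 calls in lists of this size do not set them apart. Over the 47 lists with 5 or more tested members, the list median fell with the list's median GC content (rank correlation -0.33, and 0.12 with the trend taken out), given as description.

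When each library was given an offset for its own trend with GC content, 8 genes passed, 7 of them among the 97. None of the 74 that rose was among them, although all 74 kept a change above 0 (median 0.22 in place of 0.38). The named genes that rose furthest had adjusted p of 0.139 (SCOC) to 0.715 (GMFB) under edgeR with the offset. SLC38A2 changed by 0.21 (adjusted p = 0.552). Of the 20 genes that fell and have a GC value all stayed below 0 (median -0.52 in place of -0.48) and 5 passed. These were RPL26 (-0.94), MT-ND6 (-0.61), VIM-AS1 (-1.68), ENSG00000269968 (-1.47) and ENSG00000273175 (-1.19). The 3 genes that fell without a GC value got no offset, so the 2 of them that passed (ENSG00000276700 and ENSG00000289252) were not tested against the trend. The 1 gene that passed only with the offset was S100A9, a calcium-binding protein of squamous and inflamed epithelium, at 80.7, 121 and 84.2 CPM at 0.20 mM and 70.8, 95.1 and 67.8 CPM at 0.28 mM (0.28 and adjusted p = 0.0667 before, 0.36 and 0.0455 after, edgeR).

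Several genes that fell have no symbol, and 3 of them are described here, chosen after their values were seen. ENSG00000276700, an rRNA gene in GENCODE 29, was at 151, 99.02 and 129 CPM at 0.20 mM and 331, 185 and 202 CPM at 0.28 mM, with no overlap (log2 change -0.89, SE 0.0911, adjusted p = 6.89e-07). Its level is what the depletion of ribosomal RNA left, and rRNA genes are present in many like copies, so the count is uncertain. In full medium it was at 388, 181 and 207 CPM. ENSG00000289252, with no annotation in GENCODE 29, was at 3.14, 2.50 and 1.81 CPM at 0.20 mM and 10.5, 6.97 and 10.6 CPM at 0.28 mM (log2 change -1.91, SE 0.241, adjusted p = 3.78e-05). These 2 genes alone passed in each of the 6 fits that left out 1 library. ENSG00000273175, a lincRNA, was at 8.21, 4.88 and 4.47 CPM at 0.20 mM and 17.9, 12.1 and 8.73 CPM at 0.28 mM (log2 change -1.15, SE 0.23, adjusted p = 0.0134).

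Of the 7 genes that fell by 2-fold or more, 5 share exonic sequence with an abundant gene on the other strand. VIM-AS1, a long noncoding RNA antisense to the vimentin gene (ENSG00000229124, chromosome 10, 17214239 to 17229985), was at 4.63, 2.73 and 2.45 CPM at 0.20 mM and 9.99, 9.25 and 8.02 CPM at 0.28 mM, without overlap (log2 change -1.50, SE 0.287, adjusted p = 0.00994). VIM itself averaged 1666 CPM and changed by -0.060. ENSG00000234961, another antisense gene of VIM, was at 0.961, 0.795 and 1.28 CPM at 0.20 mM and 3.28, 3.36 and 4.36 CPM at 0.28 mM (log2 change -1.89, SE 0.4, adjusted p = 0.0209). ENSG00000269968, opposite GAPDH (3954 CPM, -0.12), was at 4.19, 4.43 and 5.75 CPM at 0.20 mM and 12.8, 12.6 and 16.4 CPM at 0.28 mM (log2 change -1.56, SE 0.261, adjusted p = 0.00524). ENSG00000265401, opposite UBB, a ubiquitin gene (310.6 CPM, -0.087), was at 0.437, 0.227 and 0.852 CPM at 0.20 mM and 2.18, 2.16 and 2.83 CPM at 0.28 mM (log2 change -2.29, SE 0.505, adjusted p = 0.0274). BEST1, a chloride channel gene whose exons overlap those of the ferritin gene FTH1 on the other strand (2054 CPM, -0.12), was at 2.18, 2.16 and 2.45 CPM at 0.20 mM and 3.59, 7.09 and 6.96 CPM at 0.28 mM (log2 change -1.35, SE 0.334, adjusted p = 0.0486). In each of the 5 the groups did not overlap, and none of the partners passed the test. The strand rule of the counting is not given in the sources used here, so reads of such a gene and of its partner may not have been told apart, and these levels are uncertain.

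A wider group was formed after these values were seen. Its genes had 50% or more of their exons covered by other genes. Each also shared exonic sequence with a gene on the other strand, its partner, at least 20-fold more abundant and at 100 CPM or more. The share covered by the partner alone is not given here. The group held 42 genes with 40 partners. Of the 42, 33 had a change below 0 and 3 fell, against 51.5% and 0.166% of all tested genes. The 3 were ENSG00000265401, ENSG00000234961 and ENSG00000269968, which were among the values seen before the group was formed. The median level of the 42 was 1.45 CPM, at which errors are wide. Their median change was -0.60, or -0.57 with the GC offset, against -0.084 for the partners. The limit of 100 CPM moved these values: with no limit 45 of 70 genes were below 0 (median -0.24), and with 300 CPM 14 of 16 (median -1.07). Their summed level was 0.439, 0.411 and 0.462% of that of the partners at 0.20 mM and 0.555, 0.528 and 0.598% at 0.28 mM, so that the 3 values at 0.20 mM lay below the 3 at 0.28 mM. In full medium it was 0.544, 0.432 and 0.417%, at 0.12 mM 0.564, 0.393 and 0.607% and at 0.04 mM 0.486, 0.453 and 0.384%. The full medium and 0.12 mM libraries fell in the ranges of both concentrations or outside them, and none of the 0.04 mM libraries reached the range of 0.28 mM. The group was chosen with its values known, so no test is given.

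**Figure D5:**
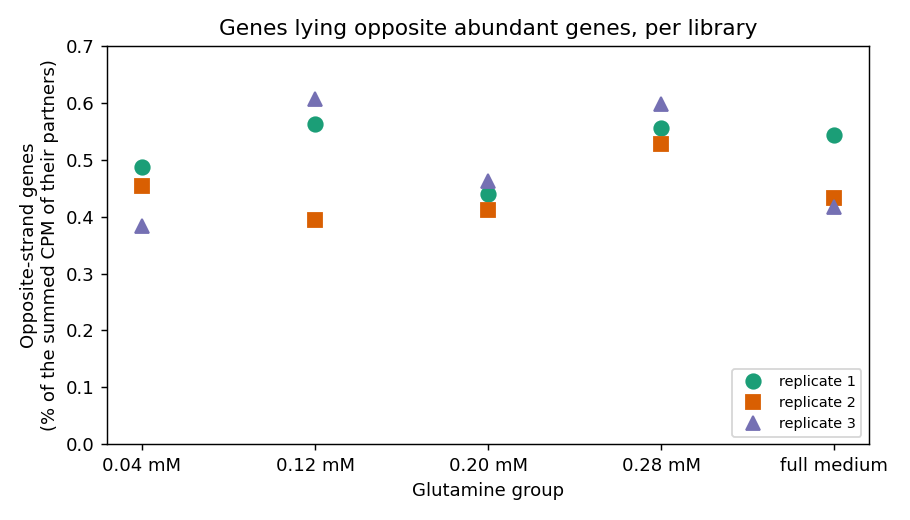
Summed CPM of 42 genes that lie opposite an abundant gene, as a percentage of the summed CPM of the 40 partners (y), for each of the 15 libraries by glutamine group (x), 1 symbol per replicate number. The 0.20 mM libraries lie at 0.411 to 0.462% and the 0.28 mM libraries at 0.528 to 0.598%, and the other 3 groups spread between 0.384 and 0.607%.

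The 2 concentrations differed in how many genes passed the test against full medium. At 0.20 mM 2050 genes (14.8%) differed from full medium, 1061 higher (7.67%) and 989 lower (7.15%), and at 0.28 mM 287 (2.08%), 170 higher (1.23%) and 117 lower (0.846%). Both contrasts use the same full medium libraries, and neither is independent of the comparison above. Their trends with GC content also differed. The mean slope was -0.131 (SD 0.0556) at 0.20 mM and -0.0269 (SD 0.0507, with pairs of both signs) at 0.28 mM. Counts with this trend taken out are not given, and its part in the difference was not tested. The 74 genes that rose had a median change against full medium of 0.40 at 0.20 mM and 0.014 at 0.28 mM, and the 23 that fell -0.45 and 0.12. Between the next concentrations 2 genes (0.0145%) differed from 0.20 to 0.12 mM, and 1 (0.00723%) from 0.12 to 0.04 mM. Replicate 3 held 5148795 gene counts at 0.12 mM and 3704170 at 0.04 mM, fewer than any of the 6 libraries compared above. Mitochondrial ribosomal RNA took 1.62 and 2.97% of these counts. The effect of both on the number of genes was not tested, so the low numbers do not show equal levels. From 0.12 to 0.04 mM, which uses none of the 6 libraries, 53 of the 74 had a change above 0 (median 0.048) against 51.1% of all genes. The 74 are AT-rich, and all genes of the first and second GC bins had medians of 0.032 and 0.026 in that contrast. Of the 23, 17 had a change below 0 there (median -0.34). Of the named genes, RPL26 changed by -0.74 there and MT-ND6 by 0.59, neither past the test.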

How the data were processed

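Total RNA of 15 libraries of MCF10A cells, 3 per glutamine group, was sequenced on a NextSeq 2000, per the labels' protocols. The authors deposited their counts, whole numbers for each library, as 1 table of 62754 Ensembl genes with 92 spike-ins of the ERCC set. Human build hg38 (GRCh38.p14) is named in the submitters' processing notes, while aligner, counter and strand setting were not given in the sources used. Every column matched a sample. Counts were used as deposited.

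The fit was made in edgeR 4.0.16 under R 4.3.3. filterByExpr (minimum count 10, minimum total 15) kept 13828 genes, libraries were scaled by TMM, and 1 quasi-likelihood model of all 15 libraries had a term for group and a block for replicate number, with Benjamini-Hochberg adjusted p under 0.05 as the threshold. Single log2 CPM values used a prior count of 2. The numbers pair the libraries: with group means removed, 30 of 30 pairs of libraries that share a number had r over 0.1 (0.184 to 0.489), against -0.41 to 0.055 where numbers differed. The labels do not say what a number stands for. GC content, lengths and overlaps came from the longest basic GENCODE 29 transcript, which may not be the gene set the authors counted. Symbols were found for 42343 genes and RefSeq positions, matched by symbol, for 40530.

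Named genes are the 12 largest rises and 12 largest falls past the test, in genes with a symbol, a mean of at least 5 CPM over the 6 libraries and 1 direction in 3 of 3 pairs, with up to 3 members of smallest p per list and a panel of 16 genes. Results for 2 genes that the rule names are not reported here. The comparison, the panel, the lists and the settings were chosen with earlier results of these data known. Lists are described by counts and medians without a set test. The GC offset is a spline with 4 degrees of freedom on GC content in each library. Alternatives were no block, DESeq2 1.42.0 and its size factors, spike-in scaling, other filters, fewer groups in the fit, offsets for GC content or for GC content and length, and each library or replicate number left out. DESeq2 without the block and the GC offset without the block were added after seeing the data. In simulated data for this comparison 200 of 13828 genes were changed, all drawn from genes averaging over 5 CPM. Of changes of 1 (log2) 99% were found and of changes of 0.5 83%, with 11 false among 193 calls. Counts were drawn gene by gene, with no trend with GC content between the concentrations. These rates therefore do not cover genes of lower level or the trend seen in the data. Python 3.11.15, pandas 2.3.3, scipy 1.17.1 and matplotlib 3.10.9 handled tables, tests and figures.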

Additional observations from a re-analysis of the deposited data

How the results depend on the processing

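The number of genes past the test depended on the setting, and the slope on GC content did not leave -0.0993 to -0.108 under the filter, prior count, length and left-out replicate alternatives (Spearman correlation -0.36 on average). Against 97 genes (74 higher, 23 lower), the fit without the replicate block called 0 in edgeR, 0 in DESeq2 and 0 with the GC offset, so every call rests on the pairing of libraries by number. With the block, spike-in scaling called 22 (12 higher, 10 lower), no filter beyond 1 count 198 (116 and 82), the 6 libraries alone 1341 (744 and 597, 55.5% higher), the 12 limited libraries 395 (270 and 125), the GC offset 8 (1 and 7) and the offset for GC content and length 10 (1 and 9). DESeq2 with the block called 145 (102 and 43), of which 82 were among the 97. Leaving out 1 library or 1 replicate number gave 3 to 25 genes, 1 to 17 higher and 2 to 12 lower. The cause of these differences was not tested. The left-out fits also had fewer samples. DESeq2 size factors in edgeR (93) and a filter of 5 CPM in 3 libraries (120) stayed within 1.5 times. No change of direction was found among named genes under any of these alternatives. Of 37 named results past the test, 26 lost it with spike-in scaling, 34 with the GC offset and 27 to 37 with 1 library left out. Of the 97 genes, 60 passed in none of the 6 fits without 1 library and 2 in all of them. Genes of a few CPM have the widest errors at this depth.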

Other observations

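Some genes past the test fall outside the rule for named genes, and a few are given here singly, chosen after their values were seen. CREBBP, a histone acetyltransferase, fell by 0.26 on the log2 scale and ANKRD52, a subunit of a protein phosphatase, by 0.27, with transcripts of 55.8 and 56.7% GC. ATRX, a remodeller of heterochromatin, rose by 0.29 and HAT1, which acetylates new histone H4, by 0.46, with transcripts of 36.8 and 37.0% GC. XPO1, the main nuclear exporter of proteins, rose by 0.28, and CALM2, a calmodulin gene, by 0.45. Each of these had the same direction in 3 of 3 pairs, and none passed in edgeR once the trend with GC content was taken out.

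MT-RNR2, the large mitochondrial ribosomal RNA and a target of the depletion step, was at 2634 CPM in replicate 1 at 0.20 mM, at 38.7 and 36.2 CPM in replicates 2 and 3, and at 40.3, 5.89 and 37.6 CPM at 0.28 mM. Its log2 change of 5.18 (SE 1.31, adjusted p = 0.0516, edgeR) rests on that 1 library.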
